A study of Mus musculus with 2 samples.

Results

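Sphingolipid metabolism genes were followed through the differentiation of brown preadipocytes into brown adipocytes by RNA-Seq. The members were chosen by gene symbol and cover serine palmitoyltransferase and its ORMDL inhibitors, the ceramide synthases and desaturases, the enzymes that join ceramide to a head group or remove one, the ceramidases, and the enzymes that make and remove sphingosine-1-phosphate. The deposited table held values for 36 such genes among 23361 genes with values, and 5 further rows under older symbols of the ceramide synthases (Lass2 to Lass6) held none. D0 denotes primary cultured brown preadipocytes and D7 the differentiated brown adipocytes, each with 1 library. Both came from newborn C57BL/6 mice (C57BL/6J in the study's methods) of either sex, with interscapular brown adipose tissue as the source, and were kept with insulin (0.1 μM) and the thyroid hormone T3 (1 nM). The D7 cells had been induced with IBMX (at 0.5 mM), indomethacin (at 0.125 mM) and dexamethasone (at 2 μg/ml) and were collected on day 7. These doses are those of the sample labels, and the study's methods give other concentrations of insulin and dexamethasone. The methods also describe preadipocytes immortalized with large T, whereas the labels and the study's account of the RNA-Seq speak of primary cultures. The number of pups behind each library is not given in the sources used here. All values are FPKM, that is, fragments per kb of transcript, scaled to the size of the library. Since each stage has a single library, the spread between cultures is unknown and no test was possible.

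Sphingolipids are membrane lipids built on a sphingoid base that serine palmitoyltransferase makes from serine and palmitoyl-CoA. The base receives a fatty acid to become ceramide, which is then turned into sphingomyelin, glycosphingolipids or ceramide phosphate, or is cut back to sphingosine and phosphorylated to the signalling lipid sphingosine-1-phosphate. In adipose tissue, ceramides are known for dampening insulin signalling and mitochondrial respiration.

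Most members stayed within 2.0-fold between the stages, and a handful moved far. Of the 33 members above 0 in both libraries, 5 had at least 2.0-fold higher FPKM at D7 (Sptlc3, Smpd3, Acer2, Ormdl3 and Cers3) and 5 were lower by as much (Ugcg, Sphk1, Asah1, Cers1 and Smpd5). Together they made up 30.3% of these members. Among all 14986 genes above 0 in both libraries, 31.7% passed 2.0-fold, with 18.5% higher and 13.2% lower. The list as a whole thus passed the threshold about as often as genes in general. These shares come from the deposited FPKM, and the study's own calls had more genes lower than higher. The median log2 ratio of D7 to D0 was 0.02 over these members and 0.02 over all these genes. FPKM reached 1 in at least 1 library in 30 members, of which 8 passed 2.0-fold, or 26.7%, beside 27.6% of the 11967 genes at that level. Among the members outside the threshold, Cers6 at a ratio of 0.518 and Cers4 at 1.93 lay nearest to it. Sptlc3, Smpd3 and Acer2 stood near the top of the 14986 genes above 0 in both libraries. Of these genes, 40, 123 and 139, respectively, had a ratio at least as high, each count including the member itself. The rank of Sptlc3 rests on 1 fragment at D0 and is therefore uncertain. Ugcg was the lowest member, and 719 of the same genes, itself included, had a ratio at least as low.

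**Figure D1:**
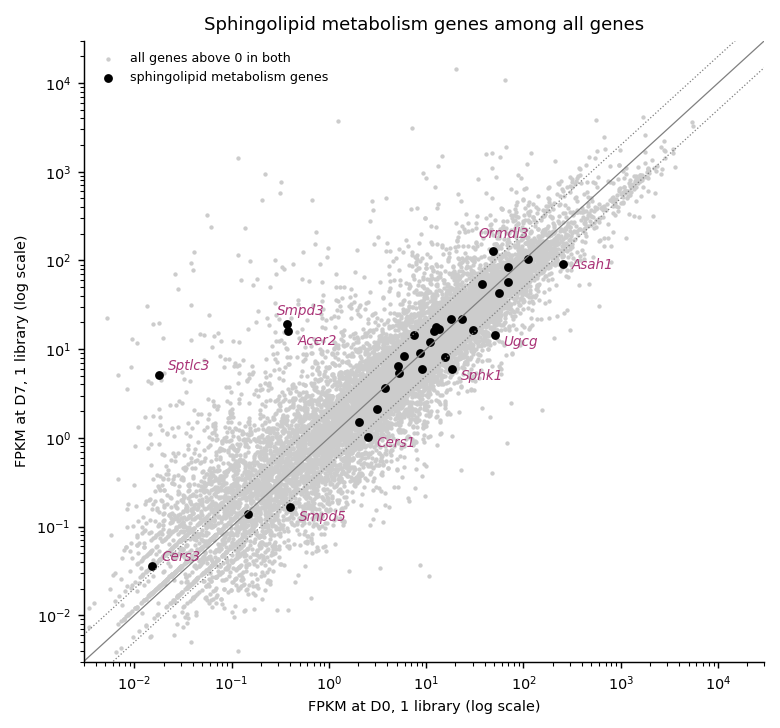
FPKM at D0 against FPKM at D7 on log axes, with 1 library per stage. Grey points are the 14986 genes above 0 in both libraries, black points the 33 sphingolipid metabolism genes among them, the solid line marks equal values and the dotted lines 2.0-fold. Sptlc3, Smpd3 and Acer2 lie far above the upper dotted line, and Asah1, Ugcg and Sphk1 below the lower one.

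Genes with a single exon gave back the fragments that each value stands for. The library size and a length correction were fitted so that their low values came nearest to whole fragments. At the fitted values every low value, 79 at D0 and 89 at D7, lay within 0.1 of a whole fragment, which is what the fit sought. By this fit the libraries behind FPKM held about 21469676 fragments (D0) and 18266002 (D7). Fragments of members with several exons are approximate, and the exact 95% intervals of the ratios reflect counting error alone, for a comparison of 2 libraries and not of the stages as such. All 7 adipocyte markers were higher at D7, with Adipoq going from 0.221 to 943 FPKM, while of 6 brown markers Ucp1, Cidea and Elovl3 were listed at 0 at D0 and reached 4.57, 24.4 and 34.2 FPKM at D7. Of the other brown markers, Ppargc1a and Dio2 were higher by at least 2.0-fold, and Prdm16 had 0.835 and 1.02 FPKM, a ratio of 1.22 (95% interval 0.965 to 1.53). Of 8 proliferation markers, 7 were lower at D7 by at least 2.0-fold. Of 7 preadipocyte and fibroblast markers, 2 were higher and 2 lower. Macrophage markers were also higher, 10 of 11 by at least 2.0-fold, and their summed FPKM went from 156 to 584 with none at 0. Of 5 Schwann cell markers 4 were higher, from a summed FPKM of 5.46 to 11.6. Summed FPKM went from 1.58 to 2.62 for 6 endothelial markers, with Tie1 at 0, from 45.4 to 1.80 for 6 muscle markers, nearly all of it Acta1 and with Myod1 and Ckm at 0, and from 0.0265 to 0.0312 for 4 erythroid markers. The part of these other cells and of proliferation in the values given here was not tested. In such bulk samples, fewer cells of a type and less RNA per cell cannot be told apart.

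**Figure D2:**
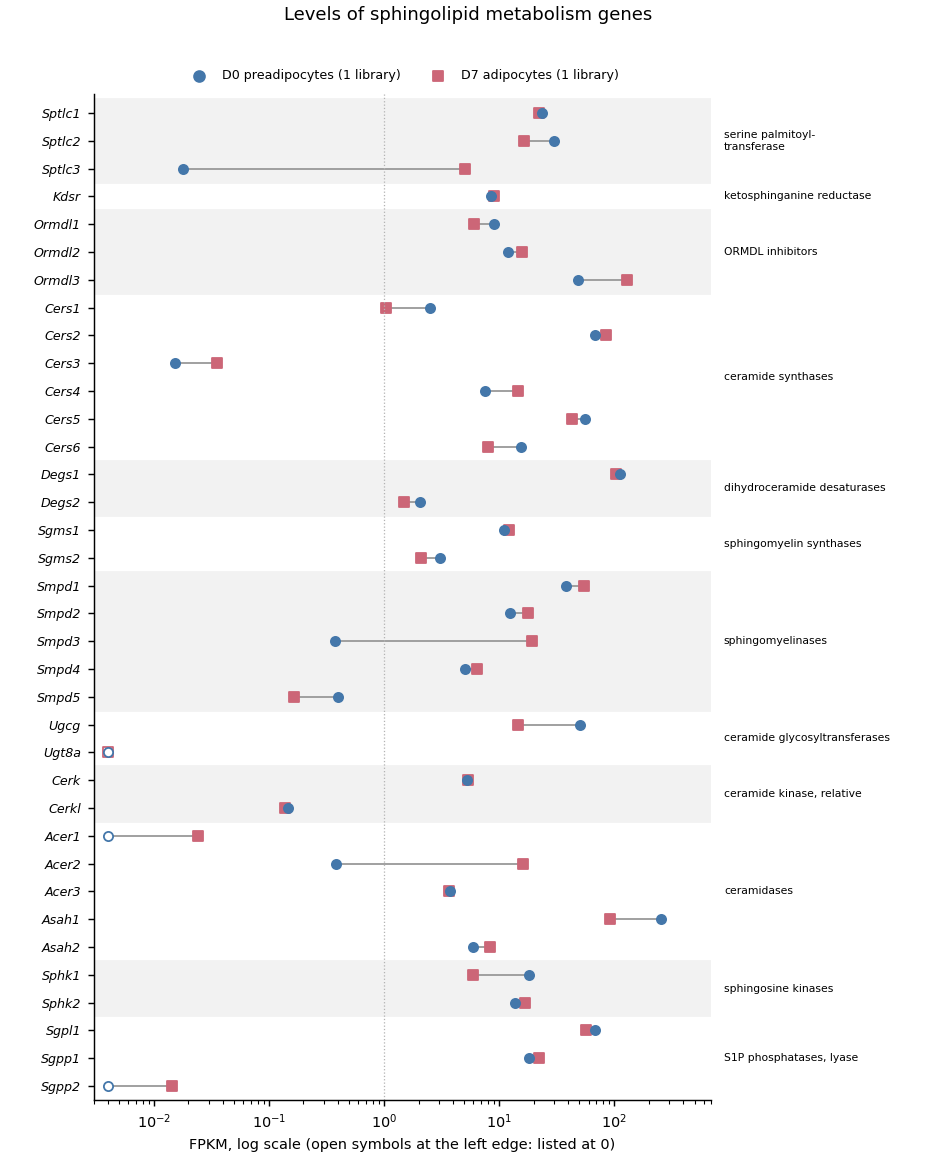
FPKM of the 36 sphingolipid metabolism genes on a log axis, grouped by role, with circles for D0 and squares for D7 (1 library each) and open symbols at the left edge for genes listed at 0. The longest lines are those of Sptlc3 (0.0181 to 5.10), Smpd3 (0.375 to 19.2) and Acer2 (0.382 to 16.0), and most other genes above an FPKM of 1 have both symbols close together.

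Promoter sequences are shown for 4 of the members that passed 2.0-fold, because those of Sptlc3 and Acer2 are very unlike each other in base composition. They are the 250 bases before the RefSeq start of each gene on GRCm38.p6 (mm10), 5′ to 3′ on the strand of the gene, with matches to CACCC or GGGCGG on either strand in capitals. Sptlc3 (chr2:139493663-139493912, plus strand), Acer2 (chr4:86874164-86874413, plus strand) and Ormdl3 (chr11:98587246-98587495, minus strand) were higher at D7, and Ugcg (chr4:59189300-59189549, plus strand) was lower.
Sptlc3: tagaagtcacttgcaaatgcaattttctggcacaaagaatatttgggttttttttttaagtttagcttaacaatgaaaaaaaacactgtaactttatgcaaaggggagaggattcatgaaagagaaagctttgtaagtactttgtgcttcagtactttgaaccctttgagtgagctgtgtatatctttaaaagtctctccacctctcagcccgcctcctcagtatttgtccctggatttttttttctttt
Acer2: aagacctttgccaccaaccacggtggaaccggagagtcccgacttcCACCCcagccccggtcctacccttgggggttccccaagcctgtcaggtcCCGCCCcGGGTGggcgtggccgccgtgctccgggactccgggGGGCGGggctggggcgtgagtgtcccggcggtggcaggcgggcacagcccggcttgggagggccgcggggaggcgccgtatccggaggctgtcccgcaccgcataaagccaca
Ormdl3: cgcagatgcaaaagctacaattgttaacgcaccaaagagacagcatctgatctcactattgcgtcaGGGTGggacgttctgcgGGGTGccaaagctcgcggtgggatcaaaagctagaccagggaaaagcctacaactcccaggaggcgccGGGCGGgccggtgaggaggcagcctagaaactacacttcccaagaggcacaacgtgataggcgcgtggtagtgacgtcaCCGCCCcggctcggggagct
Ugcg: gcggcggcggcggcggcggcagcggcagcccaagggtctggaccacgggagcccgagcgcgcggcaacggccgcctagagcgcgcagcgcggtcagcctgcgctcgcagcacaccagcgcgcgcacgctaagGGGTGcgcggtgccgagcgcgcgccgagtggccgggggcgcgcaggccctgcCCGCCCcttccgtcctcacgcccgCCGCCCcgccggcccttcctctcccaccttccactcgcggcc
Within the RefSeq window, which runs from 250 bases before to 50 after the start, the GC content was 37.3% at Sptlc3, 73.0% at Acer2, 59.7% at Ormdl3 and 81.3% at Ugcg. The median was 62.5% over the 48 promoters of 33 members and 52.7% over all 32851 promoters. CACCC, the core of Krüppel-like factor sites, was found at 23 of the 33 members (69.7%) and at 59.8% of all 27025 genes with a promoter. The GC box GGGCGG was found at 24 members (72.7%) and at 38.2% of all genes, and the E-box CACGTG at 7 members (21.2%) and at 8.09%. The direct repeat of AGGTCA spaced by 1 base, a form of site bound by PPARγ, and the C/EBP site TTGCGCAA were found at none of the members, beside 0.0481% and 0.207% of all genes. In this window Sptlc3 held none of these motifs, and the promoters of Acer2, Ormdl3 and Ugcg held 2 matches each to CACCC and to GGGCGG, of which 1 CACCC match of Ugcg lies after the start and is not shown. Searches covered both strands, and matches of one motif may overlap those of another. A gene counted if any of its promoters held the motif. The genes compared with were not matched to the members in expression, GC content or number of promoters. Asah1, Smpd3 and Smpd5 have no entry.

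Serine palmitoyltransferase is the first and committed step. Its common subunit had similar deposited FPKM at both stages, and the mix of catalytic subunits differed. Sptlc1, the subunit common to all forms of the enzyme, had 23.5 FPKM at D0 and 22.1 FPKM at D7. This gives a ratio of 0.938 (95% interval 0.862 to 1.02), so no difference was detectable at this depth in the deposited FPKM. The ratio was 0.735 once each library was divided by its median. Sptlc2, the usual catalytic partner, had 30.1 FPKM at D0 and 16.6 FPKM at D7, and its ratio of 0.551 (0.522 to 0.581) did not reach the threshold, though it was 0.432 once each library was divided by its median. Sptlc3 (ENSMUSG00000039092.9, chromosome 2, 139493913 to 139637674, plus strand) encodes the alternative catalytic subunit. At D0 it was listed at 0.0181 FPKM (1 fragment), and it reached 5.10 FPKM at D7 (about 240 fragments). Its ratio of 282 has an interval from 50.2 to 11201, since it rests on that 1 fragment, and it was 5.99 with a pseudocount of 1. Sptlc3 overlaps the annotated gene Gm27385 on the same strand, so that their reads may be shared. At D0 the 3 subunits stood in the order Sptlc2, Sptlc1 and Sptlc3, and at D7 in the order Sptlc1, Sptlc2 and Sptlc3. Sptlc2 stood at 1.28 times the level of Sptlc1 at D0 (1.20 to 1.37) and at 0.753 times at D7 (0.696 to 0.813). Sptlc3 made up 0.0336% of the summed FPKM of the 3 subunits at D0 and 11.6% at D7, when it stood at 0.307 times the level of Sptlc2 (0.267 to 0.351). These shares do not depend on the scaling between the libraries. Kdsr, the reductase of the next step, had 8.60 and 9.03 FPKM, a ratio of 1.05 (0.957 to 1.15).

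The ORMDL proteins hold serine palmitoyltransferase in check in the endoplasmic reticulum. Ormdl3 (ENSMUSG00000038150.7, chromosome 11, 98581256 to 98587368, minus strand) was the most abundant of them at both stages. It rose from 48.8 to 128 FPKM, a ratio of 2.63 (95% interval 2.50 to 2.77), on about 2103 and 4697 fragments. The other members of this family did not pass 2.0-fold and differed in direction. Ormdl2 had 11.9 and 15.9 FPKM, a ratio of 1.33 (1.15 to 1.54), in a deposited locus (the coordinates given with the row) that also covers Dnajc14 and Sarnp on the opposite strand. Ormdl1 had 8.97 and 6.02 FPKM, a ratio of 0.671 (0.559 to 0.805), and it overlaps the annotated coding gene Gm28778 on the same strand, so that their reads may be shared. The share of Ormdl3 in the summed FPKM of the family was 70.0% at D0 and 85.4% at D7. The sum itself went from 69.7 to 150, a ratio of 2.16, or 1.69 after division of each library by the median of all its values. That scaling changes every log2 ratio by -0.35 and the other scalings tried by at most -0.05. Summed over its subunits, serine palmitoyltransferase went from 53.7 to 43.8.

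Ceramide synthases attach the fatty acid, and each prefers acyl chains of certain lengths. Reads of genes that overlap on opposite strands cannot be told apart without strand. The second cDNA strand was degraded in library preparation, which keeps strand, but whether the counting used it is not given in the sources used here. Cers2, which uses very long chains and overlaps Setdb1 on the opposite strand, was the most abundant at both stages, with 68.6 FPKM at D0 and 84.8 FPKM at D7 (ratio 1.24, interval 1.17 to 1.30), and the ratio turned to 0.968 after division by the library median. Cers5, which like Cers6 prefers palmitoyl-CoA, came next with 55.7 and 43.4 FPKM, a ratio of 0.780 (0.737 to 0.825). Cers6 had 15.6 FPKM at D0 and 8.08 FPKM at D7, which gives a ratio of 0.518 (0.481 to 0.558), and 0.406 once each library was divided by its median. It overlaps several annotated genes on the same strand, among them Gm37159, so that their reads may be shared. Cers4 had 7.57 and 14.6 FPKM, a ratio of 1.93 (1.81 to 2.06). Cers4 and Cers6 thus exchanged places, with Cers4 at 0.485 times the level of Cers6 at D0 (0.454 to 0.518) and at 1.81 times at D7 (1.68 to 1.95). The family sum was nearly the same, 150 and 152, while the share of Cers2 went from 45.8% to 55.8%. The shares of Cers5 and Cers6 went from 37.1% to 28.6% and from 10.4% to 5.32%, and that of Cers4 from 5.05% to 9.61%.

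Cers1 and Cers3 were the scarce ceramide synthases. Cers1 (ENSMUSG00000087408.10, chromosome 8, 70315775 to 70331592, plus strand), best known from brain and muscle, fell from 2.50 to 1.03 FPKM, a ratio of 0.414 (95% interval 0.290 to 0.577). It shares its position and strand with Gdf1, and how the authors split their reads is not given in the sources used here. The separate row for Gdf1 had 2 fragments at D0 and 7 at D7, and the deposited locus of Cers1 also covers Upf1 on the opposite strand. With a pseudocount of 1 the ratio of Cers1 was 0.581. Cers3, the ceramide synthase of skin, had 1 fragment at D0 and 2 at D7, and its ratio of 2.35 has an interval from 0.122 to 139, so no change was detectable at this depth. The desaturase Degs1, which completes ceramide by adding a double bond, was the second most abundant member at both stages, after Asah1 at D0 and after Ormdl3 at D7. It stood at 111 FPKM at D0 and 104 FPKM at D7, or 0.931 times its D0 level (0.891 to 0.973). Degs2, a relative that also hydroxylates, had 2.05 and 1.49 FPKM, with an interval of the ratio from 0.442 to 1.16, and its deposited locus also covers Evl and Eml1.

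**Figure D3:**
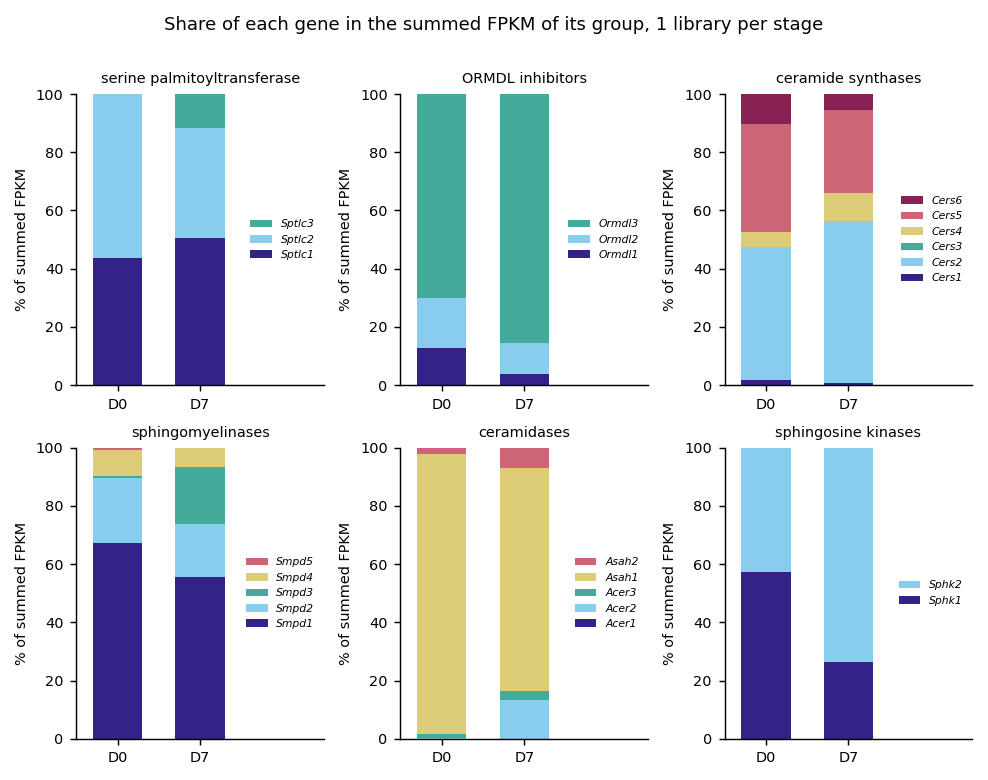
Share of each gene in the summed FPKM of its group, as stacked bars in percent, for 6 groups at D0 and D7 with 1 library each. Sptlc3 (11.6%), Smpd3 (19.5%) and Acer2 (13.4%) are visible at D7 and hardly or not at D0, and Sphk2 takes the larger part of the sphingosine kinases at D7.

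Sphingomyelin synthases differed little, whereas one of the sphingomyelinases rose far. Sgms1, the synthase of the Golgi, had 10.9 FPKM at D0 and 12.1 FPKM at D7, which gives a ratio of 1.11 (95% interval 1.01 to 1.23), and division by the library median turned it to 0.869. Sgms1 overlaps another annotated gene on the same strand. Sgms2, which also works at the plasma membrane, had 3.10 and 2.11 FPKM, a ratio of 0.681 (0.572 to 0.805). Smpd3 (ENSMUSG00000031906.9, chromosome 8, 106252548 to 106337988, minus strand) encodes a neutral sphingomyelinase known from cartilage and bone and from the release of exosomes. It rose from an FPKM of 0.375 at D0, about 40 fragments, to 19.2 at D7, about 1741 fragments. This is a ratio of 51.2 (37.4 to 71.9), and it was 14.7 with a pseudocount of 1. Its deposited locus covers Prmt7 on the opposite strand, which had 13.2 FPKM at D0 and 9.64 FPKM at D7, so Smpd3 and this neighbour had ratios on opposite sides of 1. Smpd3 also overlaps the annotated gene Gm26786 on the same strand, so that their reads may be shared. Smpd1, the acid sphingomyelinase of the lysosome, was the most abundant of the group with 37.9 and 54.7 FPKM, a ratio of 1.45 (1.36 to 1.54). Smpd2, another neutral sphingomyelinase, which overlaps Mical1 on the opposite strand, had 12.5 and 17.9 FPKM, a ratio of 1.43 (1.25 to 1.64), and Smpd4, a further neutral one, had 5.08 and 6.50 FPKM, a ratio of 1.28 (1.13 to 1.45). At D0 Smpd2 stood at 33.4 times the level of Smpd3 (24.0 to 47.4), and at D7 the levels of Smpd3 and Smpd2 could not be told apart, with a quotient of 1.07 (0.968 to 1.19). The share of Smpd3 in the summed FPKM of the 5 sphingomyelinases was 0.667% at D0 and 19.5% at D7, and the sum went from 56.2 to 98.5. Smpd5, a mitochondrial relative, had about 15 fragments at D0 and 5 at D7. The quotient, 0.421, passed 2.0-fold, but the interval from 0.112 to 1.14 includes 1, so no change was detectable at this depth, and the deposited locus covers Oplah on the opposite strand, at 3.40 and 21.4 FPKM.

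Glucosylceramide synthase, the gateway to most glycosphingolipids, was the member with the lowest ratio. Ugcg (ENSMUSG00000028381.8, chromosome 4, 59189257 to 59222833, plus strand) fell from 50.4 to 14.5 FPKM, from about 4151 to 1017 fragments, a ratio of 0.288 (95% interval 0.269 to 0.309), or 3.47-fold lower. Over the alternatives its ratio ranged from 0.226 to 0.302. Its coordinates overlap no further annotated gene. Ugt8a, which makes galactosylceramide for myelin, was listed at 0 in both libraries, and a count of 0 allows up to 3 fragments, that is, 0.0392 FPKM at D0 and 0.0462 FPKM at D7. Cerk, the kinase that makes ceramide phosphate, had 5.29 and 5.38 FPKM, a ratio of 1.02 (0.891 to 1.16), and Cerkl, a relative that the symbol rule also takes, had about 5 and 4 fragments.

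Ceramidases, which cut ceramide to sphingosine, differed in composition between the libraries. Asah1 (ENSMUSG00000031591.14, chromosome 8, 41340197 to 41374773, minus strand), the acid ceramidase of the lysosome, was the most abundant member at D0 and fell from 254 to 91.5 FPKM. This is a ratio of 0.360 (95% interval 0.348 to 0.373), or 2.78-fold lower, on about 14146 and 4330 fragments. Acer2 (ENSMUSG00000038007.14, chromosome 4, 86874396 to 86934822, plus strand), the alkaline ceramidase of the Golgi, rose from 0.382 to 16.0 FPKM, about 33 and 1179 fragments. Its ratio was 41.9 (29.8 to 61.3), and 12.3 with a pseudocount of 1. At D0 Asah1 stood at 665 times the level of Acer2 (475 to 970) and at D7 at 5.72 times (5.36 to 6.10). Asah2, the neutral ceramidase, had 5.88 and 8.40 FPKM, a ratio of 1.43 (1.28 to 1.60), and Acer3, another alkaline ceramidase, had 3.75 and 3.67 FPKM, a ratio of 0.980 (0.888 to 1.08). Acer1, an alkaline ceramidase of skin, was listed at 0 at D0, which allows an FPKM of up to 0.0621, and had 1 fragment at D7. The summed FPKM of the 5 ceramidases went from 264 to 120, a ratio of 0.453, and Asah1 made up 96.2% of it at D0 and still 76.5% at D7. The share of Acer2 went from 0.145% to 13.4% and that of Asah2 from 2.23% to 7.02%.

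**Figure D4:**
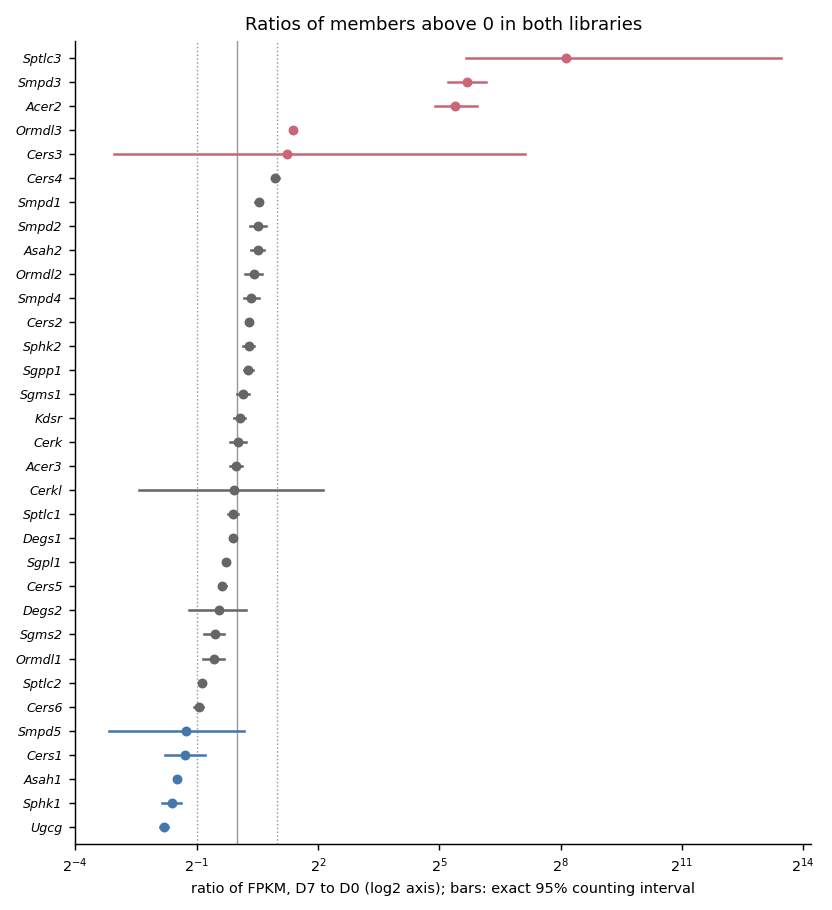
Ratio of FPKM at D7 to D0 on a log2 axis for the 33 members above 0 in both libraries, with exact 95% counting intervals as bars, red for at least 2.0-fold higher and blue for at least 2.0-fold lower. The wide bars of Sptlc3, Cers3, Smpd5 and Cerkl belong to members with few fragments in at least 1 library. Among these, the intervals of Cers3, Smpd5 and Cerkl include 1.

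Of the kinases that make sphingosine-1-phosphate, only Sphk1 passed 2.0-fold. Sphk1 (ENSMUSG00000061878.15, chromosome 11, 116530925 to 116536674, plus strand), the cytosolic kinase that growth factors and cytokines activate, fell from 18.2 FPKM at D0 to 5.94 FPKM at D7, about 665 and 184 fragments. This is a ratio of 0.326 (95% interval 0.275 to 0.384), or 3.07-fold lower. Sphk2, the more nuclear kinase, had 13.7 and 16.7 FPKM, a ratio of 1.22 (1.11 to 1.35), and division by the library median turned it to 0.957, and its deposited locus covers Dbp and Rpl18 on the opposite strand. Sphk1 stood at 1.33 times the level of Sphk2 at D0 (1.20 to 1.48) and at 0.355 times at D7 (0.301 to 0.417), so the order of the kinases was inverted whatever the scaling. The lyase Sgpl1 and the phosphatase Sgpp1, which remove sphingosine-1-phosphate, stayed below the threshold. Sgpl1, the lyase through which sphingolipids leave the pathway, had 68.8 and 57.0 FPKM, a ratio of 0.829 (0.796 to 0.863). It overlaps another annotated gene on the same strand. Sgpp1, the phosphatase of the endoplasmic reticulum, had 18.2 and 22.0 FPKM, a ratio of 1.21 (1.12 to 1.31), and division by the library median turned it to 0.949. Sgpp2 was listed at 0 at D0, which allows an FPKM of up to 0.0366, and had 1 fragment at D7.

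Other genes of the pathway were taken from a list of 52 genes with values, of which 45 were above 0 in both libraries. Of these, 5 had ratios of 2.0 and more and 9 had ratios of 0.5 and less, or 31.1% in all, which is near the 31.7% of all genes. Their median log2 ratio was -0.11. The largest block of lower genes was that of sphingosine-1-phosphate, in which 5 of 9 genes were lower and 2 higher. Together these were 77.8% of the block, whereas of all genes 13.2% were lower and 18.5% higher. S1pr1, S1pr2 and S1pr3, the receptors of this lipid with values above 0, were all lower at D7. S1pr3 fell from 44.1 to 12.4 FPKM, a ratio of 0.281 (95% interval 0.261 to 0.301), and S1pr1 from 5.02 to 0.942, a ratio of 0.188 (0.135 to 0.253). S1pr2 went from 26.1 to 12.9, a ratio of 0.495 whose interval from 0.466 to 0.527 includes 0.5. S1pr4 and S1pr5 were listed at 0 in both libraries. Ppap2a and Ppap2c, lipid phosphatases that also act on sphingosine-1-phosphate, had ratios of 0.500 (0.471 to 0.530), just inside the threshold, and 0.427 (0.373 to 0.491), while their relative Ppap2b had one of 1.94 (1.87 to 2.02). The transporters Spns2 and Mfsd2b were higher by ratio but stayed under an FPKM of 1, with about 34 and 5 fragments at D7.

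Of the 9 glycosphingolipid synthesis genes above 0 in both libraries, most of which act after Ugcg, 0 had a ratio above 1. Their median log2 ratio was -0.70, beside 0.02 over all genes. By at least 2.0-fold 3 (33.3%) were lower, beside 13.2% of all genes lower and 31.7% past the threshold either way. The 95% intervals of B3galnt1 (ratio 0.985, 0.880 to 1.10), A4galt (0.916, 0.715 to 1.17) and B3galt4 (0.834, 0.571 to 1.21) include 1. B4galnt1, which makes complex gangliosides, went from 25.1 to 11.2 FPKM, a ratio of 0.448 (95% interval 0.402 to 0.500). B3gnt5 and Gal3st1, which open the lacto series and make sulfatide, had ratios of 0.323 (0.224 to 0.454) and 0.345 (0.175 to 0.633). Both were low, B3gnt5 with 1.56 FPKM at D0 and 0.502 at D7, about 157 and 43 fragments. Gal3st1 had 1.32 and 0.456 FPKM, about 48 and 14 fragments. B4galt5, a lactosylceramide synthase, had a ratio of 0.567 and its relative B4galt6 one of 0.753 (0.680 to 0.835). St3gal5, the GM3 synthase, had one of 0.615, and all of these were short of the threshold. Of 13 genes of lysosomal breakdown, 1 was lower and 1 higher, together 15.4%, less than among all genes. Gla, the α-galactosidase, fell from 16.3 to 6.03 FPKM, a ratio of 0.370 (0.325 to 0.418). Gm2a, the GM2 activator, rose from 11.2 to 27.6, a ratio of 2.47 (2.29 to 2.67). Psap, the precursor of the saposins, was the most abundant of this group with 564 and 669 FPKM, a ratio of 1.19 (1.17 to 1.21). The lysosomal genes not named here had ratios from 0.668 to 1.09.

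**Figure D5:**
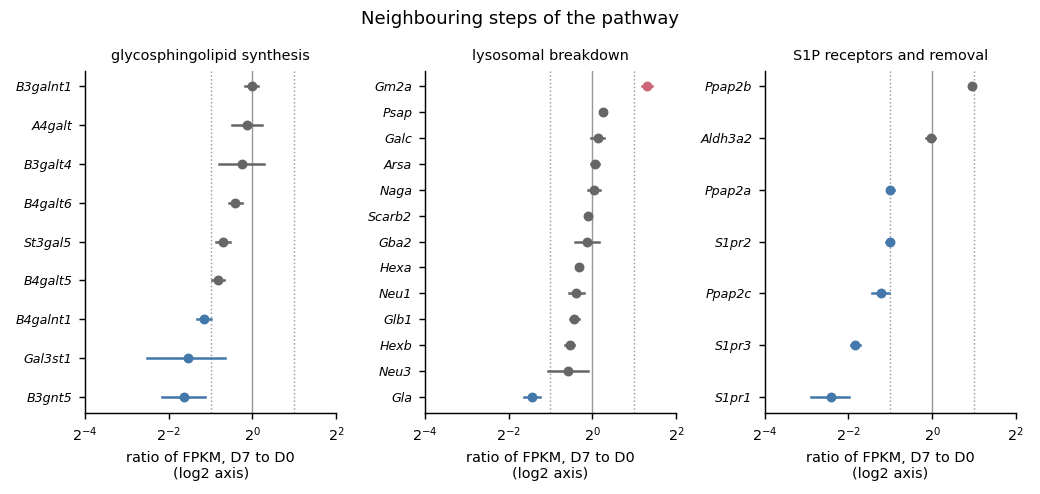
Ratio of FPKM at D7 to D0 on a log2 axis, with exact 95% counting intervals as bars, for genes of 3 neighbouring steps with an FPKM of at least 1 in at least 1 library, red for at least 2.0-fold higher and blue for at least 2.0-fold lower. The blue points left of the dotted line at 0.5 are those of S1pr1, S1pr2, S1pr3, Ppap2c, Gla, B3gnt5, Gal3st1 and B4galnt1, with Ppap2a on the line at 0.500, and Gm2a is the only gene right of the line at 2.

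At the entry of the pathway, none of the genes from the list passed 2.0-fold. Sptssa, a small subunit that activates serine palmitoyltransferase, had 20.6 and 38.2 FPKM, a ratio of 1.85 (95% interval 1.66 to 2.08), and its relative Sptssb was listed at 0 in both libraries. Col4a3bp, which carries ceramide from the endoplasmic reticulum to the Golgi, had 9.61 and 16.9 FPKM, a ratio of 1.76 (1.57 to 1.97). Adipor2, a receptor of adiponectin with reported ceramidase activity, rose from 21.7 to 210 FPKM, a ratio of 9.68 (9.22 to 10.2), whereas Adipor1 had 109 and 118 FPKM, a ratio of 1.07 (1.04 to 1.11). Adipoq, which encodes adiponectin itself, was also among the higher genes of the list. Fa2h, which hydroxylates the fatty acid of ceramide, was listed at 0 at D0, which allows an FPKM of up to 0.0604, and had about 7 fragments at D7.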

How the data were processed

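RNA-Seq of 1 library of brown preadipocytes (D0) and 1 of brown adipocytes (D7) was analysed. The authors filtered the reads, removed duplicates and rRNA reads, used SOAP2 to map the rest to mm10 and to genes, and deposited FPKM, with 1 value for a gene in each library. The submitters' processing notes name Bowtie2 and mm10. The gene annotation and the use of strand in counting are not given in the sources used here. FPKM was used as deposited, and D7 was divided by D0 with no pseudocount where neither value was 0. Changed genes were those with a ratio of 2.0 and more or of 0.5 and less, the study's criterion. The calls were made anew on the deposited FPKM. They differ from those of the study, made with GeneSpring, which had more genes lower than higher. No p-value was computed.

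Fragments were recovered with 602 single-exon genes (600 bp or longer, ends no more than 500 bp apart between the table and GENCODE M21), taking 179 bp at D0 and 182 bp at D7 from each length. Other genes took the length of the named transcript (29 members) or of the longest coding transcript (7 members). The 95% intervals are exact (Clopper-Pearson), and a count of 0 was taken to allow 3 fragments. Coordinates of all 36 members came from GENCODE M21 (GRCm38) and promoters from RefSeq (GRCm38.p6).

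The members, role groups, pathway list, marker lists and motifs were chosen with earlier results of these data known. Members with an FPKM of at least 1 in at least 1 library, and those listed at 0 in 1 library with more than 3 fragments in the other, are described in full, and pathway genes at that level past 2.0-fold are named. One gene of the pathway list is not reported here and was left out of its counts. Other pathway and neighbouring genes were named after their values were seen, as were the promoters shown. Alternatives were pseudocounts of 0.1 and 1, scaling by TPM, by the upper quartile and by a median or trimmed mean ratio, addition of rows that share a symbol, a minimum FPKM of 1, thresholds of 1.5 and 4, and a counting interval that leaves out 1. Division of each library by its median after setting FPKM under 0.01 to 0.01 was added after seeing the data. Scripts were tested on simulated data. The scripts ran under Python 3.11.15 with scipy 1.17.1, pandas 2.3.3, matplotlib 3.10.9 and numpy 2.4.6.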

Additional observations from a re-analysis of the deposited data

How the results depend on the processing

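Of the 10 members past 2.0-fold, 7 stayed past it under all 8 alternatives for single genes (Sptlc3, Smpd3, Acer2, Ormdl3, Ugcg, Asah1 and Sphk1), and none changed direction. Cers3, Cers1 and Smpd5 did not stay past it with a pseudocount of 1. Of the other 23 members, 2 passed 2.0-fold in at least 1 setting, namely Sptlc2 (0.432) and Cers6 (0.406) after division by the library median, and 6 changed direction under that scaling. The 5 higher members were 3 at a threshold of 4, and the 5 lower members were 3 with a pseudocount of 1 and 0 at a threshold of 4. After division by the library median, 4 members were higher and 7 lower. The 5 higher pathway genes were 3 with a pseudocount of 1, 3 at a minimum FPKM of 1, 9 at a threshold of 1.5, 2 at a threshold of 4 and 3 after division by the library median. The 9 lower pathway genes were 5 with a pseudocount of 1, 1 at a threshold of 4 and 12 after division by the library median. The median log2 ratio of members, 0.02, was 0.048 at a minimum FPKM of 1 and 0.047 with a pseudocount of 0.1. It was 0.0095 after scaling by the median ratio, -0.020 by the upper quartile, 0.011 by the trimmed mean ratio and -0.0036 by TPM. It was -0.30 after division by the library median and -0.0018 with up to 3 fragments set to 3, so its sign is not stable. These changes follow from the construction of each alternative. No paired analysis was possible because each stage has 1 library, and for the same reason no library could be left out. Members under about 10 fragments in a library (Sptlc3 at D0, Cers3, Cerkl, Smpd5 at D7, Ugt8a, Acer1 and Sgpp2) are limited by depth.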
